A study of Mus musculus with 22 samples.

Results

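The comparison described here is between VC+ colon at day 7 and VC+ colon at day 2 of dextran sodium sulfate (DSS), taken across all genes of the array. It sets 4 arrays of VC+ day 7 against 5 of VC+ day 2, which are 9 of the 22 arrays of the series. The tests took their spread from all 22 arrays. For each of 18194 genes 1 probe set was kept. VC+ mice are PPAR γ fl/fl and carry Villin Cre, which removes PPAR γ from the cells that express villin, the intestinal epithelium; other cells of the colon keep the gene. VC- mice carry the same floxed alleles without Cre. Mice of both genotypes drank 2.5% DSS until day 2 or day 7, and the mice of day 0 drank none. The study kept these mice on a mix of FVB and C57BL/6 and on C57BL/6 after backcrossing, and the sources used here do not say which background was put on the arrays. The age of the mice and whether each array is a separate mouse are not given in the sources used here, and the tests therefore set differences against the spread of these arrays, which may be technical. The labelled tissue is colonic mucosa, and the methods describe RNA from homogenized colonic tissue.

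DSS is a sulfated polysaccharide that injures the colonic epithelium from the lumen. Damage to the barrier lets bacterial products reach the mucosa, where resident cells release chemokines that draw in neutrophils and monocytes, and the surviving crypts later divide to close the wound. PPAR γ is a nuclear receptor that binds fatty acids, controls genes of lipid handling and dampens inflammatory signaling. The comparison of day 2 with day 7 asks how the transcripts of a colon without epithelial PPAR γ differ between the first days of injury and overt colitis.

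All values are log2 signals after GC-RMA, in which genes with little or no transcript sit at about 2 to 4, and a log2 fold change is the mean of day 7 minus the mean of day 2. Bulk tissue was measured, so fewer cells of a type and less RNA per cell cannot be told apart. Pparg itself is not a check of the deletion here, since the position of its probe set relative to the deleted part is not given in the sources used here and other cell types carry the gene. Its signal was 6.91, 9.54, 8.27, 6.87 and 6.96 on the day 2 arrays and 10.35, 10.08, 8.54 and 6.26 on the day 7 arrays. The groups overlapped, and the log2 fold change of 1.10 ± 0.70 (SE) did not pass the test (adjusted p = 0.373). Markers of colonic epithelium were high at both days. Vil1 read 11.88 to 12.83 at day 2 and 12.04 to 12.63 at day 7, Krt20 12.53 to 14.52 and 13.78 to 14.29, and Epcam 10.04 to 10.44 and 9.99 to 10.24, and none of them was called.

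Some properties of the arrays moved with the days and touch the results below. Hoxb13, a homeobox gene of the distal end of the gut, read 12.42, 3.07, 9.45, 10.44 and 11.19 at day 2 and 3.10, 3.31, 3.07 and 6.88 at day 7. Xist, the RNA that coats the inactive X chromosome of females, was at 11.87 and 11.90 on VC+ day 2 replicates 4 and 5 and at 2.06 to 2.08 on the other 7 arrays. Prss2, a pancreatic trypsinogen, was at 11.20 on VC+ day 7 replicate 4 and at 3.66 to 4.20 on the other 8 arrays, and the mean of 12 pancreas markers was 9.99 on that array and 3.06 to 3.87 on the other 8. The colon segment, the sex of the mice and the tissue adjoining each sample are not given in the labels, and their part in the results was not tested beyond the values given.

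Of 9097 genes tested with limma, 690 (7.58%) passed an adjusted p of 0.05 between VC+ day 2 and day 7. Of these, 433 (4.76%) rose and 257 (2.83%) fell, and 2102 genes had an unadjusted p under 0.05. Counts of called members of gene lists below are to be set beside these shares. A list near them does not stand apart from all genes tested. The median log2 fold change was 1.47 among the genes that rose, -1.39 among those that fell and 0.01 over all genes tested. A rise of at least 2 on the log2 scale was seen for 122 genes and a fall of that size for 57. The day 7 arrays lay wholly above or wholly below the day 2 arrays for 540 of the called genes (344 above and 196 below), beside 1287 (14.1%) of all genes tested (7.87% above and 6.28% below). The 15 largest rises were S100a9, S100a8, Cxcl2, Reg3g, Saa3, Il6, Cxcl5, Chil3, Il1b, Hp, Cxcl1, Socs3, Lrg1, Fpr2 and Lcn2, from 8.87 for S100a9 to 5.58 for Lcn2. The 15 largest falls were Mptx1, Ang4, Insl5, Clca1, Sycn, Ang, Tppp, Synpo2, Nxpe4, Rgs13, Crisp3, Ttr, Ccn3, Eno3 and Best2, from -11.26 for Mptx1 to -3.08 for Best2. They include secreted products of goblet and enteroendocrine cells. Of the genes that rose, 82 had a day 2 mean under 4, and 30 of those that fell had a day 7 mean under 4, so the size of these changes depends on where GC-RMA sets the background.

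**Figure D1:**
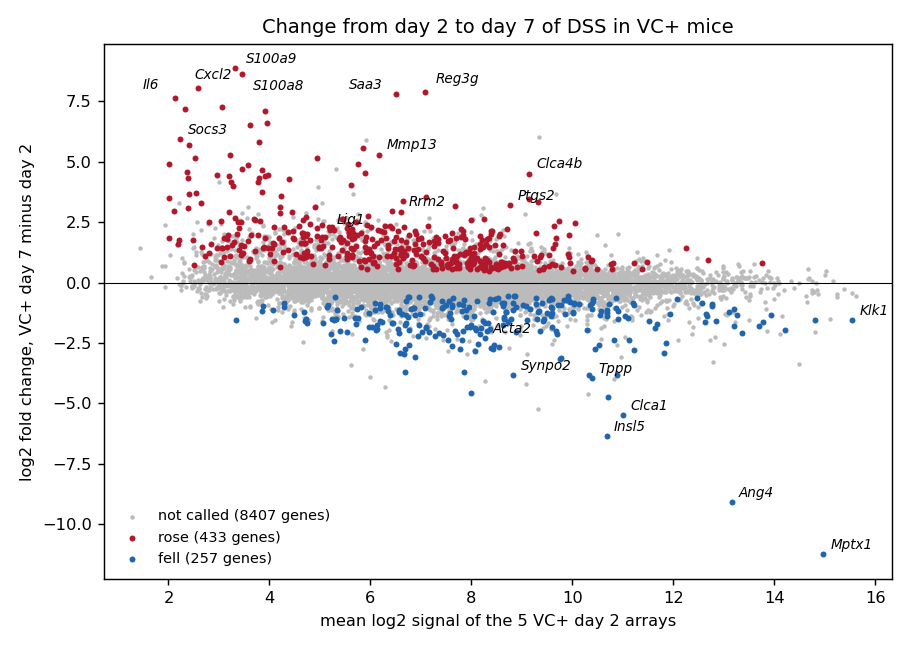
Each point is 1 of the 9097 genes tested, with the mean log2 signal of the 5 VC+ day 2 arrays on the horizontal axis and the log2 fold change from day 2 to day 7 on the vertical axis; red genes rose, blue genes fell and grey genes were not called. The largest rises, such as S100a9 and Il6, started near background, whereas the largest falls, Mptx1 and Ang4, started among the highest signals.

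The untreated VC+ arrays of day 0 are set beside these changes. They were not compared by a test here and served only in the fit's estimate of the spread. Of the 433 genes that rose, 428 (98.8%) had a day 7 mean above the day 0 mean, beside 48.2% of all genes tested, and for 231 (53.3%) every day 7 array was above every day 0 array. The day 2 mean of 312 of them (72.1%) was below the day 0 mean, beside 52.9% of all genes tested. Of the 257 genes that fell, 255 (99.2%) had a day 7 mean below day 0 and 226 (87.9%) a day 2 mean above it. All these genes were chosen by the difference of day 7 from day 2. The order of day 0 and either other day among them is therefore partly fixed by that choice and is given as a description only. VC+ day 7 replicate 4 was the highest day 7 array for 219 of the genes that rose (50.6%), and replicate 3 the lowest for 286 (66.1%), beside 25.3% and 25.8% of all genes tested.

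Several neutrophil transcripts went from background to high signal, and others stayed near background. S100a8 and S100a9, which together form calprotectin, the most abundant protein of the neutrophil cytosol, lie on chromosome 3. S100a8 read 3.21, 4.45, 3.55, 2.89 and 3.22 on the day 2 arrays and 10.19, 12.98, 10.94 and 14.29 on the day 7 arrays. Its day 2 mean was 3.46 ± 0.60 (SD, n = 5) and its day 7 mean 12.10 ± 1.88 (SD, n = 4), so S100a8 rose by 8.64 ± 0.99 on the log2 scale (SE, limma adjusted p = 9.64e-05). S100a9 rose by 8.87 ± 0.99 (adjusted p = 7.37e-05), with VC+ day 2 replicate 2 at 5.21 and the other day 2 arrays at 2.78 to 2.90. Both were highest on day 7 replicate 4, and the days did not overlap. Of 23 neutrophil markers on the array, 11 passed the variance filter and 7 of these rose (4 without VC+ day 7 replicate 4), and the median change over all 23 was 1.03. A marker at background on most arrays passes that filter only through the arrays where it is high, so the count does not speak for the whole list. The others that rose were Lrg1, a secreted leucine-rich glycoprotein (5.81), Fpr2, a formyl peptide receptor (5.68), the lectin receptors Clec4e (4.90) and Clec4d (4.44), and Il1r2, a decoy receptor for interleukin 1 (3.98). The other 12 were not tested. Among them, the granule gene Camp read 2.35 to 2.38 at day 2 and 2.37 to 2.40 at day 7, the granule gene Ngp 2.06 to 2.52 and 2.09 to 4.75, and the receptor Csf3r 4.12 to 4.18 and 4.27 to 6.06. The mean of the list was 3.13 to 3.33 at day 2 and 4.64, 6.05, 4.58 and 7.08 at day 7.

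The CXC chemokines that recruit neutrophils rose with them. Cxcl2 read 2.57, 2.59, 2.61, 2.59 and 2.60 at day 2 and 9.55, 12.02, 8.81 and 12.24 at day 7, a log2 fold change of 8.06 ± 0.97 (adjusted p = 0.000118). Cxcl1 rose by 6.51 (8.75, 8.87, 10.32 and 12.54 at day 7), Cxcl5 by 7.28 (8.86 to 13.26) and Cxcl3 by 4.32 (7.39, 9.13, 5.37 and 10.54). None of the 4 chemokines exceeded 3.89 on a day 2 array. They are close copies of each other in a cluster on chromosome 5, and probes that read a neighbor cannot be told apart from probes that read the named gene. They are 4 of the 9 neutrophil chemokines and colony stimulating factors on the array, of which 5 passed the variance filter, and the median change over all 9 was 0.70. The untested members include Csf3 (0.70), Csf2 (0.22) and Ppbp (0.02).

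These chemokines and Il6 are known targets of NF-κB, and their promoters are shown because the letters of a κB site stand in all of those that the RefSeq promoter table holds (GRCm38.p6; the 250 bases before each gene's start, searched on both strands for GGG, any 2 bases and TTTCC). The match is in capitals, in 30 bases of flank on either side:
Cxcl1: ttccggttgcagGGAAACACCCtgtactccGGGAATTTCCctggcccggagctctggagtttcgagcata
Cxcl2: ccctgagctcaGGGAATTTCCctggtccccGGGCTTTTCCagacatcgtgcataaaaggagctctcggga
Cxcl3: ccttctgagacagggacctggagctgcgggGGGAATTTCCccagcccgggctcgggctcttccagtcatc
Il6: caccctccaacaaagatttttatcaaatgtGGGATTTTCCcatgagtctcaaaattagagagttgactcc

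All 4 windows lie on the plus strand of chromosome 5, at chr5:90891144-90891213 for Cxcl1, chr5:90903791-90903860 for Cxcl2, chr5:90785998-90786067 for Cxcl3 and chr5:30013040-30013109 for Il6. Cxcl1 and Cxcl2 hold 2 matches each. The motif stood before 3.37% of the genes that rose, 1.46% of those that fell, 1.87% of all genes tested and 1.65% of all promoters of the table. Most genes that rose therefore lack these letters in this window, and a match is a description of the sequence only. The motif was chosen with the results known.

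Cytokines of the interleukin 1 and interleukin 6 families rose by large amounts. Il6, which drives the acute phase response, read 2.11 to 2.15 on every day 2 array and 8.47, 8.39, 9.55 and 12.65 at day 7, a log2 fold change of 7.64 ± 0.83 (adjusted p = 6.75e-05). Il1b, the secreted interleukin 1 of myeloid cells, read 3.72 to 4.16 at day 2 and 10.19, 11.91, 9.26 and 12.74 at day 7, a rise of 7.11 ± 0.83 (adjusted p = 0.000109). For both genes the days were far apart, and VC+ day 7 replicate 4 was the highest array. Il11 rose by 4.39, the alarmin Il33 by 3.36, and the antagonist Il1rn by 2.15. Of 19 tested cytokines and receptors, 8 rose and none fell, with a median of 1.34. The receptors among them were Il1r1 (1.58), Osmr (1.74) and Tnfrsf1b (1.66). Without VC+ day 7 replicate 4 the median was 0.67 and 5 members rose, and 5 rose without replicate 1 or without day 2 replicate 3, 4 or 5. Over all 33 members on the array the median was 0.65. Tnf was below the variance filter and was not tested. It read 2.21 to 2.39 at day 2 and 2.51, 4.89, 2.38 and 4.60 at day 7.

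Signaling genes that respond to these cytokines rose in the same arrays. Socs3, the feedback inhibitor of interleukin 6 signaling, had the smallest adjusted p of the genes named here (7.63e-06): it read 2.75 on day 2 replicate 2, 2.09 to 2.12 on the other day 2 arrays and 7.75, 8.03, 7.81 and 9.04 at day 7, a rise of 5.93 ± 0.53. The day 7 arrays of Socs3 were close together, unlike those of the chemokines. Other members of the list that rose were Ptx3, a soluble pentraxin (4.88), Tnfaip2 (2.63), the transcription factor Cebpb (2.56) and Junb, a subunit of the AP-1 factor (2.30). In all, 10 of 23 tested genes of NF-κB feedback and acute signaling rose and none fell. Of CC and lymphocyte chemokines 6 of 18 rose, led by the monocyte attractant Ccl2 (4.67), Ccl3 (3.66) and the eosinophil attractant Ccl11 (2.23). Ccl8 and Ccl12 also rose, by 2.06 and 1.61, although their day 2 and day 7 arrays overlapped.

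Acute phase and antimicrobial proteins moved in both directions. Saa3, a serum amyloid A made locally in inflamed tissue, read 5.53, 9.56, 6.78, 4.67 and 5.99 at day 2 and 13.70, 14.06, 14.15 and 15.26 at day 7, a rise of 7.79 ± 0.92 (adjusted p = 0.00011). Lcn2, the siderophore-binding lipocalin, rose by 5.58 and haptoglobin (Hp), which binds free hemoglobin, by 6.59. Reg3g, an antibacterial lectin of the epithelium, read 2.40, 11.88, 11.92, 2.84 and 6.32 at day 2 and 15.25, 15.39, 14.30 and 14.86 at day 7 (7.88 ± 1.99, adjusted p = 0.0239). Its day 2 arrays thus spread over nearly the whole range of the array, and the rise was 3.71 (adjusted p = 0.178) with Hoxb13 signal as a covariate. Reg3b, its neighbor in the same family, read 3.93 to 14.01 at day 2 and 15.16 to 15.52 at day 7 and did not pass the test (6.04 ± 1.86, adjusted p = 0.0531). Of the 21 tested genes of this list 6 rose and 1, Ang4, fell.

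**Figure D2:**
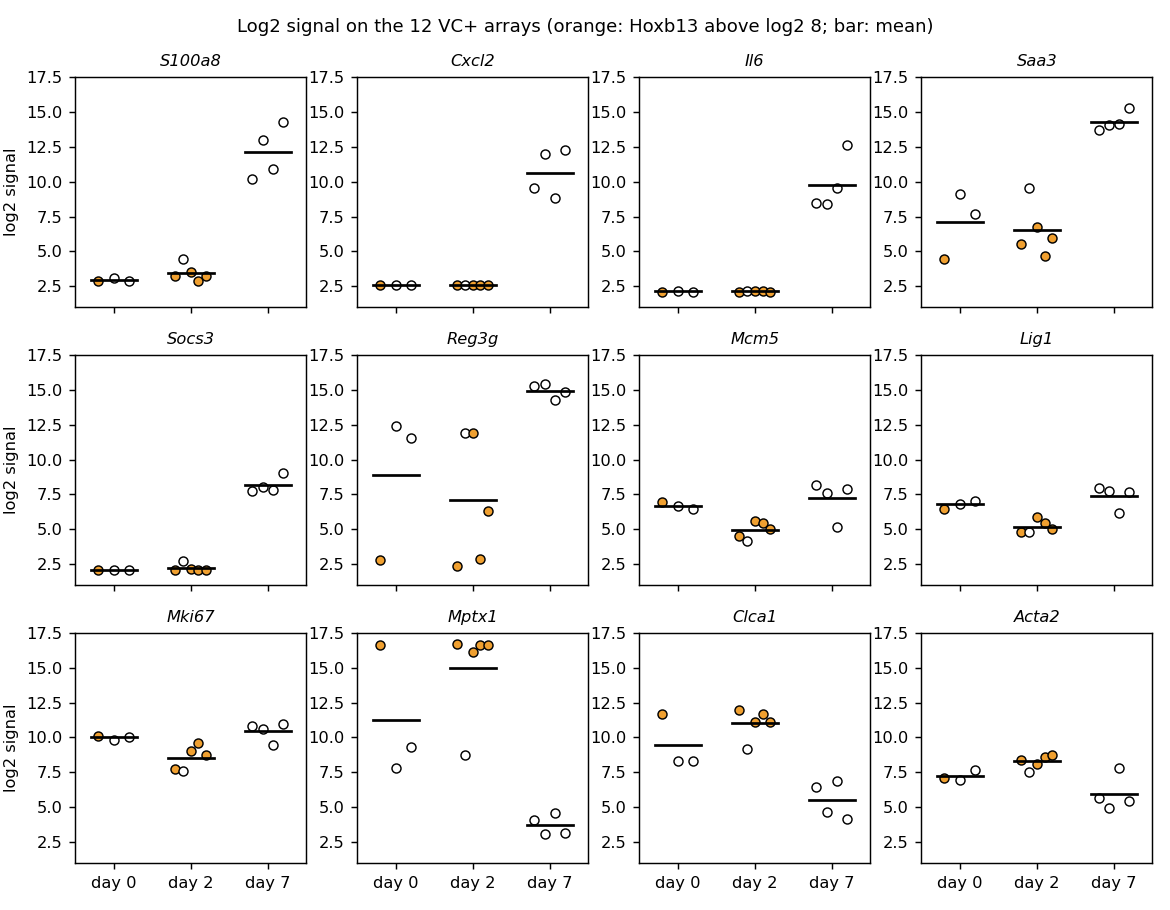
Log2 signal (vertical axis) of 12 genes on the 12 VC+ arrays, grouped by day of DSS; each point is an array, bars are group means and orange points are arrays with Hoxb13 above a log2 signal of 8. S100a8, Cxcl2, Il6 and Socs3 rose from near background, with the day 2 arrays of Cxcl2 and Il6 close together. Reg3g was spread at day 2, and Mcm5, Lig1 and Mki67 were lower at day 2 than at either other day. Mptx1 and Clca1 were low on VC+ day 2 replicate 2 and on the 2 white day 0 arrays, those with low Hoxb13.

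Macrophage and monocyte markers rose in part. Of 27 tested, 9 rose, 26 had a positive change and the median was 1.32. Without VC+ day 7 replicate 4, 4 rose and the median was 0.83. Chil3, a chitinase-like protein of activated macrophages, rose by 7.20 (2.32 to 2.34 at day 2 and 8.32, 9.88, 8.18 and 11.76 at day 7), the receptor Clec7a by 2.95, the immunoglobulin receptor Fcgr1 by 2.63, Ms4a6d by 2.60 and the integrin Itgam by 2.27. General macrophage markers were not called: Adgre1 changed by 0.11 (adjusted p = 0.849), Csf1r by 0.51 (adjusted p = 0.418) and Cd68 by 0.72 (adjusted p = 0.532). The list mean was 6.80 to 7.37 at day 2 and 7.97, 8.12, 8.45 and 9.52 at day 7. The phagocyte oxidase, which makes superoxide, rose with 4 of its subunits, Cybb (1.88), Ncf4 (1.84), Ncf1 (1.42) and Cyba (1.05). None of the 4 passed without VC+ day 7 replicate 4, the array with pancreatic transcripts, where their limma adjusted p-values were 0.0598 to 0.0919. Their list, oxidant-producing and antioxidant enzymes, held 6 rises among 20 tested (30%, beside 4.76% of all genes tested), with a median of 0.76. Without that replicate 0 rose (median 0.79), and without all the arrays with Prss2 signal 6 rose (median 0.79). Of T cell markers 1 of 7 tested rose (Cd69, 1.56) and of B and plasma cell markers 1 of 10 (Cd72, 0.95), with medians of 0.11 and 0.02 over all members on the array.

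Enzymes that degrade matrix were among the larger rises. Mmp13 read 6.33, 7.99, 6.51, 4.99 and 5.04 at day 2 and 10.49, 10.50, 10.40 and 14.45 at day 7, a rise of 5.29 ± 1.03 (adjusted p = 0.00738). The stromelysins Mmp3 and Mmp10 rose by 4.92 and 4.39, and the inhibitor Timp1 by 4.17, from 2.78 to 4.36 at day 2 to 6.87, 6.34, 7.43 and 9.02 at day 7. Mmp3 was already above its day 0 range of 2.54 to 2.76 on every day 2 array (5.33 to 6.45). Of 19 tested metalloproteinases and inhibitors 5 rose and none fell. Of 30 collagens and matrix proteins tested none rose and 2 fell, Col14a1 (-1.66) and Postn (-1.33), with a median of -0.20. Neither passed without VC+ day 7 replicate 1, 2 or 4 or without day 2 replicate 4 or 5, and the median ran from -0.51 without day 7 replicate 4 to 0.03 without replicate 1. The adhesion molecules Selp and Icam1, which capture leukocytes on vessel walls, rose by 3.52 and 2.26. They were the only calls among 16 tested endothelial and adhesion genes (12.5%, beside 7.58% of all genes tested), of which 5 had a negative change. Without VC+ day 7 replicate 4 no member was called and the median was -0.08 in place of 0.32. The limma adjusted p was then 0.104 for Selp and 0.097 for Icam1. Without all the arrays with Prss2 signal 3 members rose. The metallothionein Mt2, which binds zinc and copper, rose by 3.32. Ptgs2, the inducible cyclooxygenase, rose by 3.21, and the protease inhibitor Serpina3n by 3.45.

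**Figure D3:**
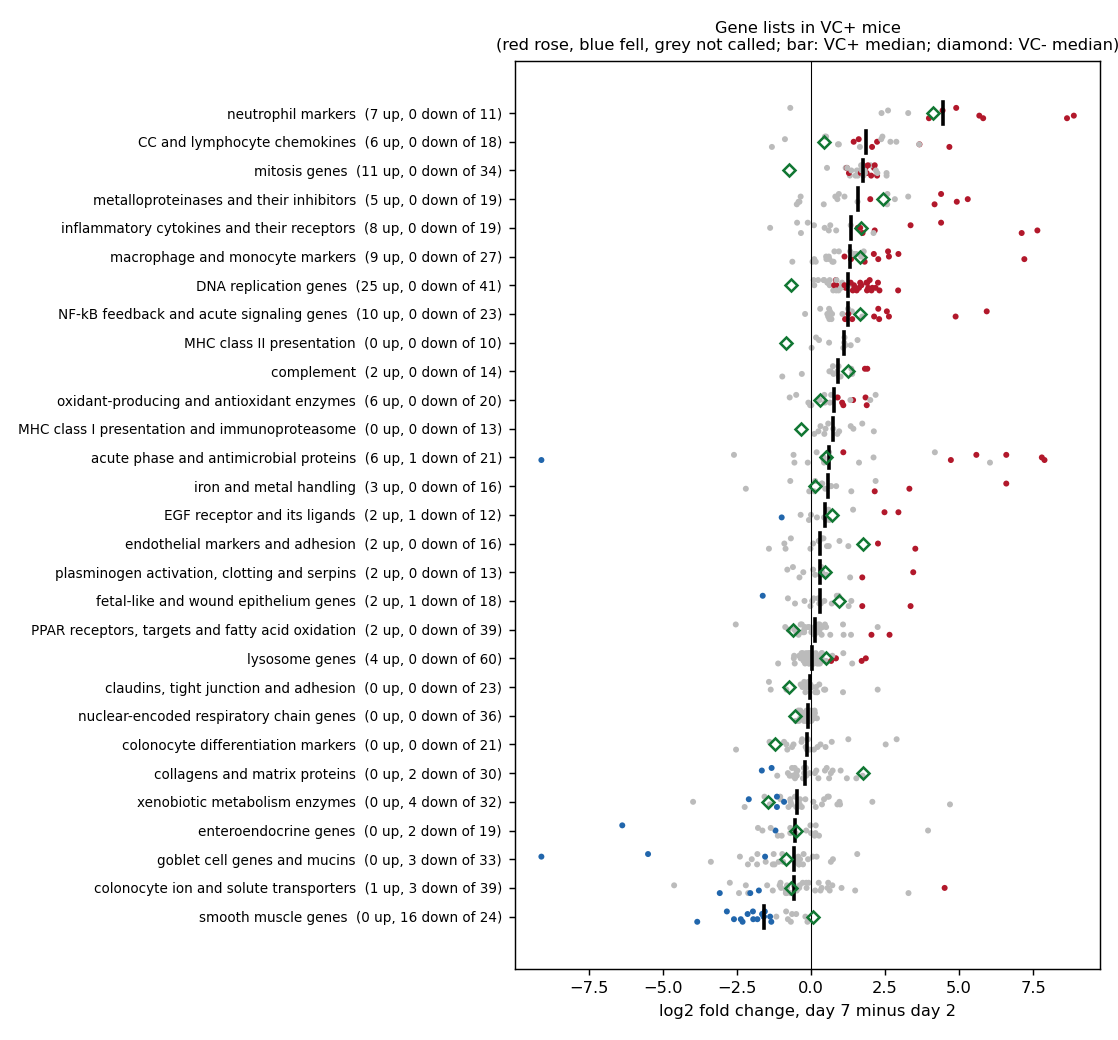
Log2 fold change from day 2 to day 7 (horizontal axis) of each tested member of 29 gene lists in VC+ mice; red members rose, blue fell, grey were not called, black bars are VC+ medians and green diamonds the medians of the same genes in VC- mice. DNA replication genes held 25 calls upward of 41 and smooth muscle genes 16 calls downward of 24, and for both lists the VC- median lay on the other side of 0.

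Genes of DNA replication rose as a group. Of 41 tested, 25 rose and none fell, all 41 had a positive change and the median was 1.26, beside 4.76% of all tested genes called upward and 50.6% with a positive change. They cover the steps of the process: the Mcm helicase (Mcm2 to Mcm7, 1.41 to 2.26), loading factors (Cdc6 2.31, Cdt1 1.47, Orc1 1.13), polymerase and primase subunits (Pola1 1.66, Pole 1.45, Prim2 1.62), the single-strand binding protein Rpa2 (1.90), the ligase Lig1 (2.18) and the nucleotide enzymes Rrm2 (2.94) and Tk1 (1.93). Lig1 read 4.81, 4.81, 5.87, 5.43 and 5.04 at day 2 and 7.94, 7.75, 6.15 and 7.65 at day 7 (2.18 ± 0.39, adjusted p = 0.00392). Mcm5 read 4.49, 4.17, 5.62, 5.47 and 5.01 at day 2 and 8.17, 7.62, 5.17 and 7.91 at day 7 (2.26 ± 0.58, adjusted p = 0.0246). In both genes day 7 replicate 3 was the low array, and for Mcm5 it lay among the day 2 arrays. The day 0 arrays of Mcm5 (6.95, 6.68 and 6.45) were above every day 2 array.

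A low point at day 2 was general in these genes. The mean over the replication list was 6.90 to 7.00 at day 0, 5.72 to 6.33 at day 2 and 7.94, 7.38, 6.23 and 7.39 at day 7. For all 41 genes the day 2 mean was below the day 0 mean, and for 29 (70.7%) every day 2 array was below every day 0 array, beside 6.09% of all genes tested. The day 7 mean exceeded the day 0 mean for 34 of the 41. Among mitosis genes 11 of 34 rose, all 34 had a positive change and the median was 1.76, with list means of 7.20 to 7.29 at day 0, 5.22 to 6.47 at day 2 and 8.42, 7.96, 6.47 and 8.13 at day 7. Birc5 rose by 2.23, the topoisomerase Top2a by 2.15, the kinase Plk1 by 2.13 and the proliferation marker Mki67 by 1.92. VC+ day 7 replicate 3 was the lowest day 7 array for all 34 mitosis genes and for 40 of the 41 replication genes.

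The number of calls in these lists depended on single arrays. Without VC+ day 7 replicate 1, 5 replication genes and 0 mitosis genes rose, without replicate 2, 8 and 0, without replicate 4, 6 and 0, and without replicate 3, 31 and 27. Leaving out a day 2 array gave 11 to 19 replication genes and 3 to 7 mitosis genes. All members kept a positive change in these 9 fits, and the medians were 1.04 to 1.61 and 1.52 to 2.19. With Hoxb13 signal as a covariate 10 replication and 4 mitosis genes rose (medians of 1.34 and 2.06). With Xist signal as a covariate 20 and 10 rose (medians of 1.28 and 1.93). Without the arrays with Xist signal 0 of either rose, in a fit that called 17 of all genes tested. The medians there were 1.31 and 2.07.

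The promoters of 21 of the 25 called replication genes were in the table. Of these, 5 (23.8%) held the letters of an E2F site, TTTCCCGC or TTTGGCGC, on either strand in the 250 bases before the start, beside 5.62% of genes that rose, 0.976% of genes that fell, 2.70% of all genes tested and 1.51% of all promoters. E2F factors drive genes of the G1 to S transition, and these windows are shown with the match in capitals:
Mcm5: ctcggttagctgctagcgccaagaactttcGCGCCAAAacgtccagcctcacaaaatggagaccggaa
Mcm6: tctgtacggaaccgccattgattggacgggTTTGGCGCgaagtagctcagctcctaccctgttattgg
Mcm7: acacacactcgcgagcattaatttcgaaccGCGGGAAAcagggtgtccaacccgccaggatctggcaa
Cdc6: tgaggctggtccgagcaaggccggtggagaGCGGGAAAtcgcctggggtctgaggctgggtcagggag
Pola1: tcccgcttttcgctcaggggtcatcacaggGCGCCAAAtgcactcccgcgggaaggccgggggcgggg

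Mcm6 holds 1 further match outside its window. In GRCm38.p6 the windows lie at chr8:75109330-75109397 (Mcm5, plus strand), chr1:128359715-128359782 (Mcm6, minus), chr5:138172011-138172078 (Mcm7, minus), chr11:98907983-98908050 (Cdc6, plus) and chrX:93632256-93632323 (Pola1, minus). None of the 10 called mitosis genes with a promoter held these letters. The CArG motif, CCWWWWWWGG with W for A or T, was searched as well. It stood before 1 of 13 smooth muscle genes that fell (7.69%), 3.41% of all genes that fell and 1.65% of all genes tested.

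**Figure D4:**
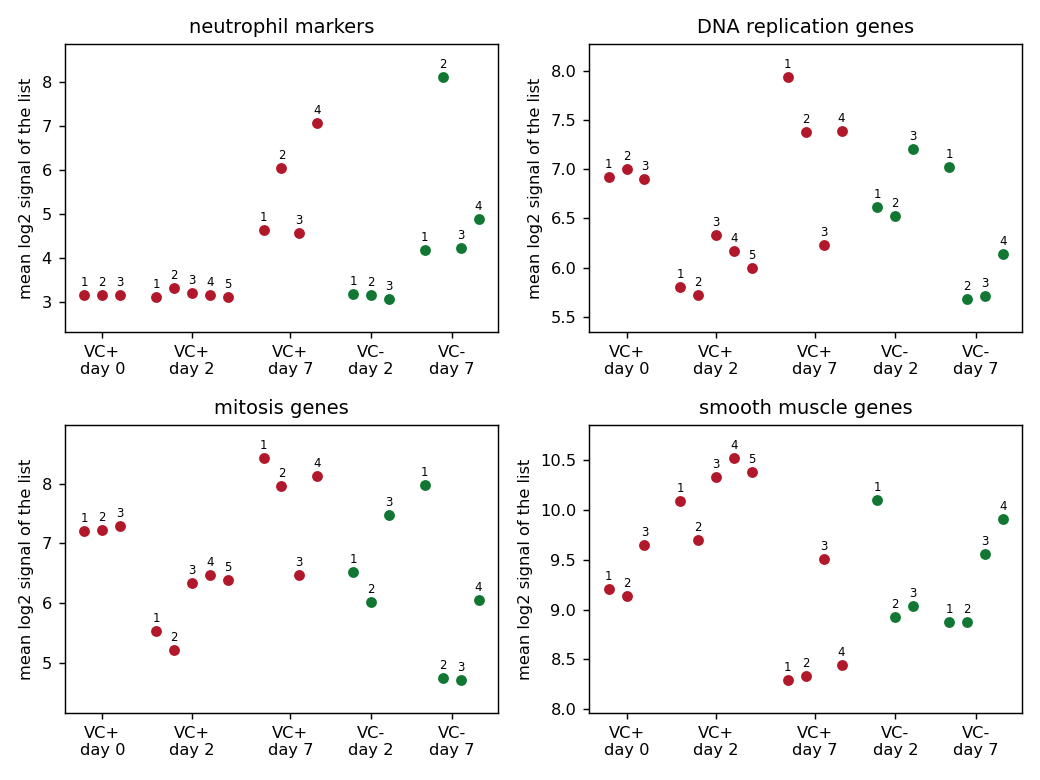
Mean log2 signal (vertical axis, scaled to each panel and not starting at 0) of all members of 4 gene lists on each VC+ array (red) and on the VC- arrays of days 2 and 7 (green), with replicate numbers above the points. Neutrophil markers were raised on all 4 VC+ day 7 arrays, replication and mitosis genes on replicates 1, 2 and 4 but not 3, and smooth muscle genes were lowest on replicates 1, 2 and 4.

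Smooth muscle genes fell as a group. Of 24 tested, 16 fell and none rose, beside 2.83% of all genes called downward, all 24 had a negative change, and the median was -1.59. The contractile proteins were among them: Acta2 (-2.31), Actg2 (-1.95), Myh11 (-1.60), Tpm2 (-1.56), Cnn1 (-1.81) and desmin, Des (-1.59). Myh11, the smooth muscle myosin heavy chain, read 12.41, 12.60, 12.77, 13.51 and 12.90 at day 2 and 10.95, 11.04, 12.05 and 10.91 at day 7 (-1.60 ± 0.32, adjusted p = 0.00773). Acta2, the smooth muscle actin, read 8.38, 7.53, 8.11, 8.59 and 8.76 at day 2 and 5.67, 4.91, 7.79 and 5.47 at day 7 (-2.31 ± 0.44, adjusted p = 0.00656). For Myh11 the days did not overlap; for Acta2 day 7 replicate 3 lay among the day 2 arrays. The largest fall of the list was that of Synpo2, an actin-bundling protein of muscle, from 9.38, 6.95, 9.20, 9.51 and 9.11 to 4.83, 4.93, 4.11 and 6.08 (-3.84 ± 0.79, adjusted p = 0.00901).

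The day 2 level of the smooth muscle list was itself high. The list mean was 9.14 to 9.65 at day 0, 9.70 to 10.52 at day 2 and 8.29, 8.33, 9.51 and 8.44 at day 7, and for 23 of 24 genes the day 2 mean was above the day 0 mean. Enteric neuron and glia genes, which lie in the same muscle wall, had 1 call of 15 (Cryab, -1.23) and 12 negative changes. The number that fell was 7 without day 7 replicate 1, 10 without replicate 2, 7 without replicate 4 and 10 to 15 without a day 2 array, other than 17 without day 7 replicate 3. It was 13 without the arrays with Prss2 signal, 6 with Hoxb13 signal as a covariate and 13 with Xist signal as a covariate. The medians were -1.46, -1.49 and -1.59 in these fits. Without the arrays with Xist signal 0 fell, in a fit that called 17 of all genes tested, and the median was -1.48. The share of muscle in each tissue piece was not given, and its part in the result was not tested.

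The largest falls of all were secreted proteins of the colonic epithelium. Mptx1, a mucosal pentraxin, read 16.70, 8.77, 16.10, 16.64 and 16.63 at day 2 and 4.05, 3.09, 4.56 and 3.11 at day 7, a log2 fold change of -11.26 ± 2.41 (adjusted p = 0.0107). Ang4, an antimicrobial ribonuclease, read 14.13, 9.48, 13.51, 14.79 and 13.86 at day 2 and 6.98, 3.82, 3.02 and 2.40 at day 7 (-9.10 ± 2.09, adjusted p = 0.0163). Insl5, a peptide hormone of colonic enteroendocrine cells, fell by 6.37 on the log2 scale (adjusted p = 0.0336) and Clca1, a secreted protein of goblet cell mucus, by 5.50 (adjusted p = 0.00803). The days did not overlap for any of these 4 genes. VC+ day 2 replicate 2, the day 2 array with Hoxb13 at background, was the lowest day 2 array for 13 of the 15 largest falls, beside 23.3% of all genes tested. At day 0, the 2 arrays with Hoxb13 at background read 7.83 and 9.33 for Mptx1 against 16.60 on the third, and replicates 2 and 3 were below replicate 1 for all 15 genes (39.8% of all genes tested).

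These falls were smaller when Hoxb13 signal was a covariate. The log2 fold change was then -6.12 for Mptx1 (adjusted p = 0.0689), -6.51 for Ang4 (adjusted p = 0.114), -2.57 for Insl5 (adjusted p = 0.271) and -3.71 for Clca1 (adjusted p = 0.064), and of the 15 largest falls only Tppp, a tubulin-binding protein, passed the test (-3.80, adjusted p = 0.0312). Tppp read 10.35, 10.55, 10.83, 10.21 and 9.97 at day 2 and 6.16, 6.20, 8.19 and 5.09 at day 7 (-3.97 ± 0.72, adjusted p = 0.004 without the covariate). By contrast, S100a8, Cxcl2, Il6, Saa3 and Socs3 rose by 8.46, 8.20, 7.85, 6.18 and 5.83 with the covariate, each with an adjusted p of 0.00159 or less.

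Other epithelial lists held few calls, to be set beside 7.58% of all genes tested. Among 33 tested goblet cell genes and mucins 3 fell (9.09%), Ang4, Clca1 and the kallikrein Klk1 (-1.55), with a median of -0.56. In this list 28 had a negative change. The day 7 arrays lay wholly below the day 2 arrays for 9 and wholly above for 1, beside 6.28% and 7.87% of all genes tested. With Hoxb13 signal as a covariate 1 fell and the median was -0.39. The main mucin Muc2 stayed high (15.45 to 15.83 at day 2, 14.52 to 15.64 at day 7) and was not tested. Of 39 ion and solute transporters 3 fell, the chloride channels Best2 (-3.08) and Ano1 (-1.76) and the sodium channel subunit Scnn1a (-2.05), and 1 rose. That 1 was Clca4b, which read 7.87, 9.09, 9.96, 8.51 and 10.32 at day 2 and 13.71, 14.10, 12.37 and 14.45 at day 7 (4.51 ± 0.65, adjusted p = 0.000687). Colonocyte differentiation markers gave no call in 21 and claudin, tight junction and adhesion genes none in 23, with medians of -0.14 and -0.05. In limma's fit 3 and 2 members of these lists had an unadjusted p under 0.05. Xenobiotic enzymes had 4 falls in 32 tested (12.5%), among them the epoxide hydrolase Ephx1 (-1.15) and the glutathione transferase Gstt1 (-1.15). Ephx1 read 7.59, 7.98, 8.15, 7.85 and 7.92 at day 2 and 6.54, 6.33, 7.04 and 7.08 at day 7 (adjusted p = 0.00334).

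A few genes of repair and of squamous epithelium were called, from short lists. Of 12 tested genes of the EGF receptor and its ligands 3 were called (25%), and 3 of 18 fetal-like and wound epithelium genes (16.7%), beside 7.58% of all genes tested. Without VC+ day 7 replicate 4, 1 gene of each of these 2 lists was called. The EGF receptor ligands Epgn and Ereg rose by 2.95 and 2.48, and Egf fell from 3.44 to 4.77 at day 2 to 2.61 to 3.22 at day 7 (-0.99, adjusted p = 0.0279), levels near background. Ly6d, a surface protein of squamous cells and B cells, read 4.62, 4.48, 7.70, 2.67 and 5.27 at day 2 and 9.69, 10.65, 8.13 and 12.02 at day 7 (5.17 ± 1.25, adjusted p = 0.0197), the only call among 6 tested squamous genes. Of 20 crypt base and Wnt target genes 1 fell, Tnfrsf19 (-1.51), and none rose.

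Genes downstream of PPAR γ and genes that the study followed were read next. Among 39 tested genes of the PPAR receptors, their targets and fatty acid oxidation 2 rose (5.13%, beside 7.58% of all genes called and 4.76% called upward), Angptl4, an inhibitor of lipoprotein lipase (2.65), and Acot1, a cytosolic thioesterase (2.04), and the median was 0.12. Angptl4 read 4.69, 6.49, 5.42, 5.39 and 5.16 at day 2 and 7.83, 6.32, 8.08 and 10.10 at day 7, so the days overlapped. The lipid droplet protein Plin2 changed by 0.22 ± 0.26 (adjusted p = 0.673) and the fatty acid binding protein Fabp2 by -0.87 ± 0.80 (adjusted p = 0.567). Irak1, a kinase of Toll-like receptor signaling, read 8.40, 8.18, 8.46, 8.21 and 8.48 at day 2 and 8.64 to 9.16 at day 7. Its arrays did not overlap, yet the change of 0.56 ± 0.17 just missed the threshold (adjusted p = 0.0504). Of 60 tested lysosome genes 4 were called, all upward (6.67%, beside the same 7.58% and 4.76%), namely Lgmn (1.85), Slc11a1 (1.71), Gusb (0.84) and Ap1m1 (0.68). None of them was called without VC+ day 7 replicate 2 or 4 or without day 2 replicate 4. The median of the lysosome list was 0.04, and -0.04 with the arrays centred on their medians. Antigen presentation genes gave no call: all 13 of MHC class I and all 10 of MHC class II had a positive change (medians of 0.75 and 1.10), with 6 and 2 members at an unadjusted p under 0.05 in limma's fit. The smallest adjusted p was 0.0682 for Erap1 and 0.181 for Cd86.

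The same days were compared in VC- mice, on 3 arrays of day 2 and 4 of day 7. There 510 genes (5.61%) passed the test, 314 (3.45%) upward and 196 (2.15%) downward. Genes called in both genotypes in the same direction numbered 108, which is 15.7% of the VC+ calls and 21.2% of the VC- calls, and 1 gene was called in opposite directions. Of the 690 genes called in VC+ mice, 498 (72.2%) had the same sign in VC- mice, beside 60.4% of all genes tested. Side by side, S100a8 changed by 8.64 in VC+ and 7.73 in VC-, Il6 by 7.64 and 7.32, Cxcl1 by 6.51 and 6.47 and Socs3 by 5.93 and 5.95. The difference between genotypes was 0.91 for S100a8 and -0.02 for Socs3, with adjusted p-values of 0.764 and 0.991. Replication genes, mitosis genes and smooth muscle genes had medians of 1.26, 1.76 and -1.59 in VC+ mice and -0.66, -0.75 and 0.07 in VC- mice. Reg3g changed by 7.88 in VC+ and 0.51 in VC- mice, and Insl5 by -6.37 and 1.88, with adjusted p-values of the difference of 0.239 and 0.174.

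No difference between the genotypes passed its test. In the contrast of the VC+ change minus the VC- change, limma called 0 of 9097 genes (0%), 1555 had an unadjusted p under 0.05, and the smallest adjusted p was 0.108, for Acaa1b. The difference was 2.87 for Lig1 and -2.76 for Acta2, each with an adjusted p of 0.167. The arrays behind the VC- values also differed in Hoxb13, which was 2.88 to 3.08 at VC- day 2 and 3.81, 2.86, 3.03 and 9.62 at VC- day 7, so that 1 day 7 array stood above the rest. Xist was at 2.07, 11.59 and 11.58 at VC- day 2 and at 2.03 to 2.07 at VC- day 7. Prss2 was at 14.74 on VC- day 7 replicate 2 and at 3.59 to 4.06 on the other VC- day 7 arrays. The mean of the pancreas markers was 13.39 on that replicate and 2.93 to 3.52 on the others of its group. Their part in the VC- values was not tested beyond the other settings given below. The list mean of the replication genes was 6.53 to 7.21 at VC- day 2 and 7.02, 5.68, 5.71 and 6.14 at VC- day 7, so the genotypes overlapped at day 7 and not at day 2.

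**Figure D5:**
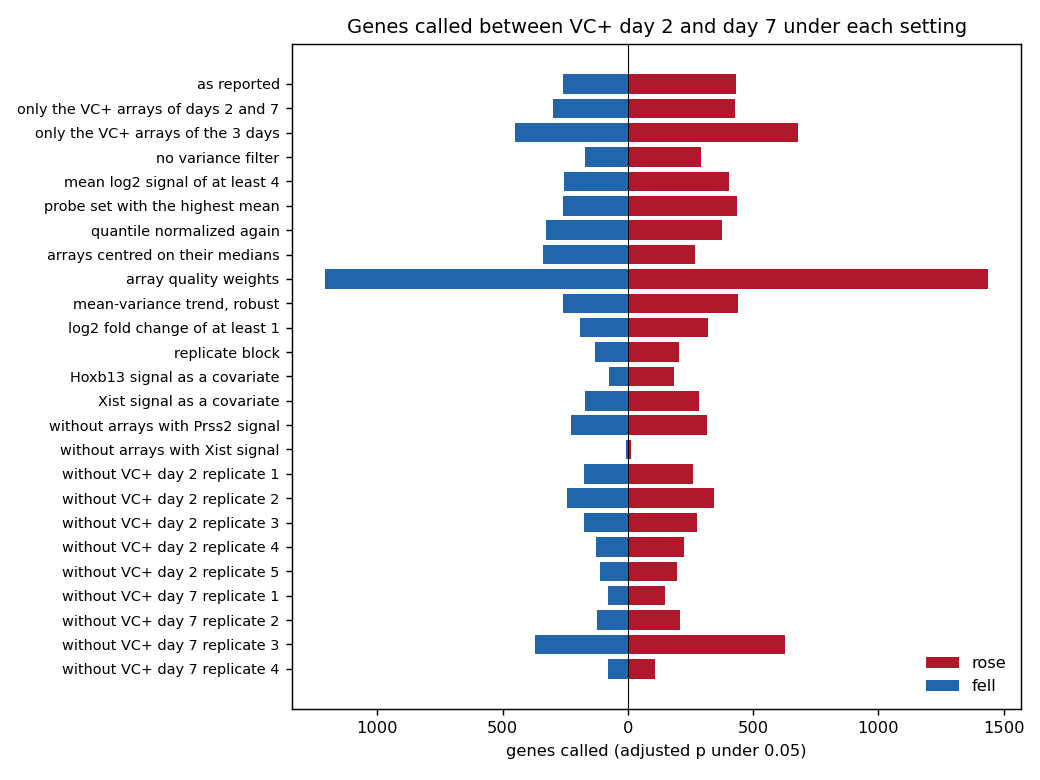
Number of genes called between VC+ day 2 and day 7 (horizontal axis, genes that rose to the right in red and genes that fell to the left in blue) as reported and under each other setting. The number ran from 17 without the arrays with Xist signal to 2645 with array quality weights, beside 690 as reported.

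The number of called genes depended on which arrays were used. Without the 6 arrays with Xist signal, 17 genes passed the test (11 rose and 6 fell), 16 of them among the 690. S100a9, S100a8, Cxcl2, Saa3, Il6, Il1b, Cxcl1, Socs3 and Clca4b were the genes named here that passed in that fit, with adjusted p-values of 0.0204 to 0.0429. Without VC+ day 7 replicate 4, the array with pancreatic transcripts and the highest inflammatory signals, 187 genes passed, and without replicate 1, 226. Without all 3 arrays with Prss2 signal, which include that replicate 4, 545 genes passed, 438 of them among the 690. Of 114 called genes named by rule, 44 passed in each of the 9 fits that left out 1 VC+ array, among them S100a8, Cxcl2, Il6, Saa3, Timp1, Clca4b, Lig1, Acta2, Mptx1 and Tppp. Counts in other lists moved by over 1.5 times with single arrays. Without VC+ day 7 replicate 4, 2 of 18 CC and lymphocyte chemokines rose in place of 6, 5 of 23 NF-κB feedback genes in place of 10 and 3 of 19 metalloproteinases and inhibitors in place of 5 (median 0.92 in place of 1.57). In the same fit 2 xenobiotic enzymes fell in place of 4, with a median of 0.18 in place of -0.48. Without all the arrays with Prss2 signal 5 of these chemokines, 10 feedback genes and 5 metalloproteinases and inhibitors rose, and 2 xenobiotic enzymes fell. In that fit 7 neutrophil markers, 8 macrophage and monocyte markers and 3 lysosome genes also rose. Of cytokines and receptors 8 rose and 1 fell. The chemokines that rose were 3 without day 7 replicate 1, the feedback genes 6 without day 7 replicate 2 or day 2 replicate 3, 4 or 5, and the xenobiotic enzymes that fell 2 without day 7 replicate 1 or day 2 replicate 1, 4 or 5. When each array was centred on its median over the genes, 269 genes rose and 338 fell, so the share of upward calls was 44.3% in place of 62.8%.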

How the data were processed

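The deposited values are log2 signals of 22 Affymetrix arrays, 1 per sample, which the authors read in R 2.10.1 and processed with GC-RMA (background correction, normalization across arrays and 1 log2 value per probe set); the version of GC-RMA is not given in the sources used here. Of 45101 probe sets, 34958 carry 1 gene symbol in the platform annotation, and 34754 of these were known to the RefSeq table. Each gene was read from its most variable probe set (by interquartile range over the arrays), and the 50% of genes with the wider range, 9097 in number, entered the tests. Groups follow the sample labels. A model with 6 group means was fitted over all arrays with limma 3.58.1 in R 4.3.3, which moderates the variances, with two-sided tests and Benjamini-Hochberg adjustment over the genes of a comparison. Precision is limited by how many arrays a group holds. The array medians ran from 3.41 to 3.55.

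The members, the 53 gene lists, the tests, the motifs and the rule for named genes were chosen with earlier results of these data known. The rule names the 15 largest rises and falls whose arrays do not overlap, up to 5 called members of each list, genes that the study followed, and Hoxb13, Xist and Prss2 as properties of arrays. On simulated arrays of the VC+ comparison with 9097 genes, 88 of 100 changes of 2 and 96 of 100 changes of 4 on the log2 scale were called, with 12 false calls. Whether these rates hold for the measured arrays, which differ in Hoxb13, Xist and Prss2, was not tested. Promoters are those of the RefSeq table (GRCm38.p6).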

Additional observations from a re-analysis of the deposited data

Results flagged for a closer look

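Single arrays that stood far from the rest of their group were sought by Dixon's test in the 244 groups of values of the named genes, where chance alone flags about 1 in 20. VC+ day 7 replicate 4 was the array apart for Ms4a6d (12.15), Icam1 (9.29), Mmp13 (14.45), Mmp3 (13.68), Epgn (6.24), Ncf4 (9.56), Prss2 (11.20) and Hoxb13 (6.88), each above the other day 7 arrays, and for Klk1 (12.07) and Fabp2 (9.56), below them. This is the array with pancreatic transcripts.

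VC+ day 2 replicate 2, whose Hoxb13 signal was at background, stood apart for S100a9 (5.21) and Socs3 (2.75), above the other day 2 arrays, and for Synpo2 (6.95), Ang4 (9.48), Mptx1 (8.77), Cebpb (3.48), Duoxa2 (2.42) and Synm (9.60), below them.

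The other single arrays lay apart without a shared pattern among the named genes. At day 2 these were replicate 1 for Fpr2 (2.51) and Ccl8 (11.38), above the rest, and for Pln (6.33), below it. Replicate 3 was high for Epgn (2.37) and Prss2 (4.20), replicate 4 for Asns (10.24) and replicate 5 for Gusb (8.88). At day 7, replicate 3 was low for Tlr2 (8.32) and Lig1 (6.15) and high for Gstt1 (8.18) and Pln (7.92), and replicate 1 was low for Ccn3 (5.14). Of the 30 flags, 10 fell on VC+ day 7 replicate 4 and 8 on VC+ day 2 replicate 2.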

How the results depend on the processing

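None of the 114 called genes named by rule reversed its direction under the alternatives run on it (107 of them with a mean signal of at least 4 and 113 with the probe set of highest mean). The 690 genes called between VC+ day 2 and day 7 became 1131 with the VC+ arrays of 3 days alone, 2645 with array quality weights, 455 with Xist signal and 256 with Hoxb13 signal as a covariate and 17 without the arrays with Xist signal. Without the variance filter 462 were called, and without the arrays with Prss2 signal 545. Leaving out single arrays of either genotype gave 187 to 1246. The 1246 came without VC- day 7 replicate 2, an array that enters this comparison only through the estimate of the spread. With the replicate number as a block, 333 genes were called. The numbers do not mark pairs: same-numbered arrays of days 2 and 7 deviated together with correlations of -0.05 to 0.15, and 1 of 4 day 2 arrays correlated best with its own number. The difference between genotypes, with 0 calls as reported, had 1474 with weights, 2 without the arrays with Prss2 signal and 0 to 620 without single arrays (121 when VC+ day 7 replicate 3 was left out and 620 when VC- day 7 replicate 1 was). In VC- mice the 510 calls became 1369 without the variance filter, 839 with weights, 105 with the block and 300 without the arrays with Prss2 signal. They were 280 with Hoxb13 signal and 60 with Xist signal as a covariate, and 50 to 2121 without single arrays. VC- day 2 replicates 2 and 3 carried Xist signal. The fit without such arrays left only replicate 1 of that group, so its VC- count is not given. Of all list members 158 were called, 94 without the variance filter and 135 without the arrays with Prss2 signal. The number was 119 with Xist signal and 82 with Hoxb13 signal as a covariate, and 9 without the arrays with Xist signal. Apart from what each setting does to the number of arrays or genes tested, the cause was not tested. Signals near background limit the size of the largest changes.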
